A study of Mus musculus with 18 samples.

Results

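The GATA transcription factors measured here are Gata1, Gata2, Gata3 and Gata4, and their members are all array probes whose description carries one of these 4 symbols, among 5626 symbols on the array. There were 6 such probes among 15247 gene probes: 1 for Gata1 (clone H3038A09), 2 for Gata2 (H3008G04 and H3009F04), 1 for Gata3 (H3049E04) and 2 for Gata4 (H3158F07 and H3062H01). RNA came from embryoid bodies, the aggregates in which mouse embryonic stem cells differentiate, of the line i-Mixl1, named for the homeobox gene Mixl1. The groups were embryoid bodies with doxycycline (DOX) at 0.1 ug/ml, added 1 day after plating, and embryoid bodies without it, each harvested on days 2, 3 and 4 as 3 biological replicates per group. All 6 groups shared the line, and how it was built is not given in the sources used here. The 18 samples were read on 9 spotted cDNA arrays with 2 colours, 3 arrays per day, each holding a DOX and a control sample.

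Which channel held DOX was not settled. In the deposited value table each DOX column is the red scanner channel of an array and each control column the green one, whereas the labels assign Cy3, a green dye, to DOX and Cy5, a red dye, to the controls. Values are therefore given as red and green, and a ratio is red over green. Under the value table higher in red means higher with DOX, and under the labelled dyes it means higher without DOX. No array had the dyes swapped, so that a dye effect and a treatment effect cannot be told apart within a day.

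GATA factors are zinc finger proteins that bind the DNA motif for which they are named and switch on genes of particular lineages. Gata1 drives red cell and megakaryocyte maturation, and Gata2, active in blood stem and progenitor cells and in endothelium, precedes it on many of the same sites. Gata3 acts in trophoblast and T cells, and in frog and fish embryos it responds, like Gata2, to BMP signals. Gata4 acts in heart progenitors and in primitive and visceral endoderm. In embryoid bodies these genes come on as mesoderm, blood, heart and endoderm cells form.

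The proximal promoters of the genes are shown because the ratios of their probes differed in timing: the fitted ratios of Gata1 and Gata2 were higher at day 4 than at day 3, and that of Gata3 was raised at both days. Gata4 had no entry among the promoters used, so none is shown for it. Each sequence is RefSeq's for GRCm38.p6, runs from 250 bases before to 50 bases after the transcription start on the gene's strand, and has matches in capitals to the motifs searched on both strands. These were GATA sites (A or T, then GATA, then A or G), CCAAT boxes (the letters of their name), E-boxes (CANNTG) and paired homeodomain sites (TAAT and ATTA with any 3 bases between them). The 3 genes matched in the promoter table were Gata1 at chrX:7967861-7968160 (minus strand), Gata2 with starts at chr6:88193641-88193940 and chr6:88198414-88198713 (plus strand) and Gata3 at chr2:9878551-9878850 (minus strand).
Gata1: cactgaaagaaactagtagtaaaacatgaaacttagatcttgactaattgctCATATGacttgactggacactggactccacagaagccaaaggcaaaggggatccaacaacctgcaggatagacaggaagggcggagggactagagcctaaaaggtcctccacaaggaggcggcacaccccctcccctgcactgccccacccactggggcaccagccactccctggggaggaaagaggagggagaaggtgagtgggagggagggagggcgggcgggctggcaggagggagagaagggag
Gata2, start 1: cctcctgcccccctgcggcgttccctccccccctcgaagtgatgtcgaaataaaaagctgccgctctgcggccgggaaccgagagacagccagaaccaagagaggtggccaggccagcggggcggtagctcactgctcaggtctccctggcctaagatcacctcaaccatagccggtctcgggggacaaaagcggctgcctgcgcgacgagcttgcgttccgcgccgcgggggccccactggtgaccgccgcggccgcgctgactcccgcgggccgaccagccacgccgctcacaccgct
Gata2, start 2: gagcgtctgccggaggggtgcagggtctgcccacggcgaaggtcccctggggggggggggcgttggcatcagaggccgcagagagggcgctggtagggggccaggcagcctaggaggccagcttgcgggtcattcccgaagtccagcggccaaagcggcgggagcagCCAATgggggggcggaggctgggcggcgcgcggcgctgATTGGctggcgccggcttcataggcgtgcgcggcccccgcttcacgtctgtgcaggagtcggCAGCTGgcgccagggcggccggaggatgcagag
Gata3: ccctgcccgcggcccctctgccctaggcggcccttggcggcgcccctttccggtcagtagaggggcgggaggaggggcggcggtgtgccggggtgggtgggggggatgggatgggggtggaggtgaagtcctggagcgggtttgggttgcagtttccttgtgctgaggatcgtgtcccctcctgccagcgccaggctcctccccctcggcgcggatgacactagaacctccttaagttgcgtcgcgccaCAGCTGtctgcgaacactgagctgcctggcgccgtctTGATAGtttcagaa
The Gata3 window held a GATA site whose first base lies 37 bases after the start, and an E-box at the start. The Gata1 window held an E-box, and the window of the second Gata2 start held 2 CCAAT boxes, 1 on each strand, and an E-box. No window held a paired homeodomain site, and that of the first Gata2 start held none of the 4 motifs. Over 32851 promoters of the same length, 29.8% held a GATA site, 37.4% a CCAAT box, 72.3% an E-box and 0.487% the homeodomain site. E-boxes and CCAAT boxes are thus letters that a large share of all windows hold, and a match is a description of these bases.

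The median background-subtracted intensity of a sample ran from 209 to 466 in the red channel and from 252 to 491 in the green channel. A signal-to-noise ratio of 1.4, taken here as the limit of detection, was reached by 54.3% to 65.6% of gene probes in red and 62.0% to 70.1% in green. Array 1 of day 3 had the lowest red median, 209, and the lowest share of probes at the limit, 54.3%. With 3 arrays for each day, precision is set by the number of arrays.

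At day 2 no GATA probe passed the test for a difference between the channels. Gata1, H3009F04 and H3062H01 were then below the limit of detection in both channels on all 3 arrays. At day 3 Gata4 and Gata3 were the most unequal, 4.03-fold and 2.55-fold higher in red, with Gata2 1.46-fold and Gata1 at least 1.50-fold higher. By day 4 Gata1 (2.74-fold) and Gata2 (2.34-fold) had the higher ratios, Gata3 was 2.03-fold higher, and the Gata4 ratio, 0.816-fold, did not pass the test. The fitted ratios thus fell into 3 patterns by day: Gata1 and Gata2 highest at day 4, Gata3 with a raised ratio at both late days, and Gata4 with a raised ratio at day 3.

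Ratios were tested with limma on the log2 scale, with Benjamini-Hochberg adjustment over all gene probes and a threshold of 0.05. At day 2, 0 of the 6 probes passed, none at an unadjusted p under 0.05 either, where 3.30% of all probes passed (1.38% higher and 1.92% lower). At day 3, 4 of 6 were higher in red and none lower, where 20.1% of all probes passed, 9.15% higher and 11.0% lower. At day 4, again 4 of 6 were higher and none lower, where 17.4% of all probes passed, 7.97% higher and 9.45% lower. The 4 probes at day 3 were those of Gata1 and Gata3 and the brighter of each pair for Gata2 and Gata4, and at day 4 they were Gata1, both Gata2 probes and Gata3.

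**Figure D1:**
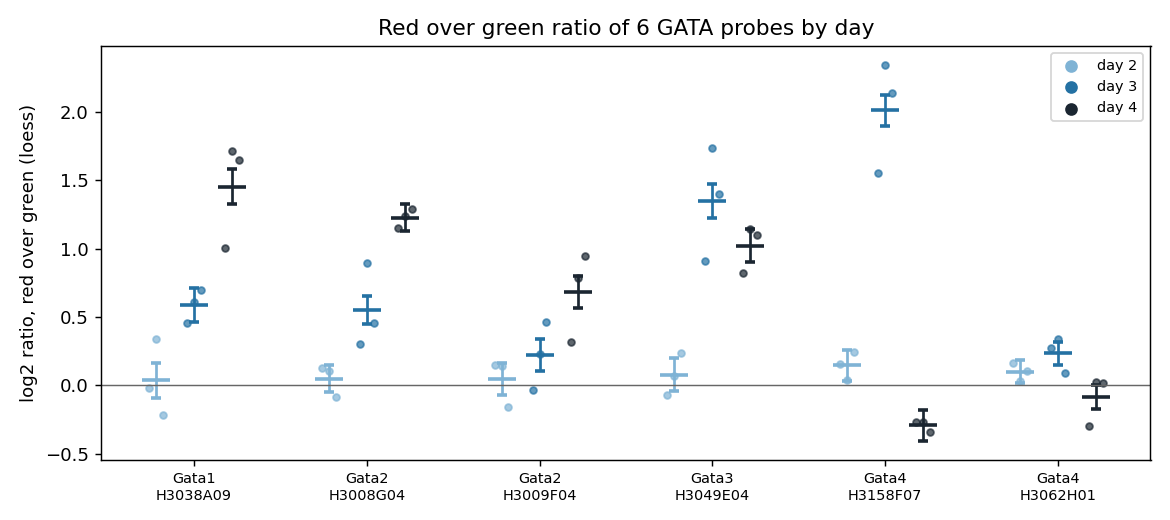
Log2 ratio of red over green after loess (vertical axis) for the 6 GATA probes (horizontal axis) at days 2, 3 and 4, with a point per array and a bar for the limma mean and standard error of 3 arrays. Gata4 (H3158F07) stands at 2.01 at day 3 and at -0.29 at day 4, whereas Gata1 and Gata2 (H3008G04) are highest at day 4, at 1.45 and 1.23.

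Gata1, the regulator of red cell genes, lay near background at days 2 and 3 and above it in red at day 4. At day 2 its spot had 35, 31 and -12 units in red on arrays 1, 2 and 3, against 44, 3 and 9 units in green. Both channels stayed under the limit of detection on all 3 arrays, and no fold is given. At day 3 it had 15, 111 and 133 units in red, against 5, 48 and 42 units in green. Red exceeded green on all 3 arrays, although the ranges overlapped because array 1 was dim in both channels. With green below the limit on all 3 arrays, the day 3 difference is a bound, at least 1.50-fold (log2 0.59 ± 0.13, SE, limma adjusted p = 0.00426). That bound is the fitted ratio itself and carries its error, and it ran from log2 0.53 to 2.09 over 8 alternatives. At day 4 it had 144, 366 and 299 units in red, against 27, 45 and 56 units in green. The ranges no longer overlapped, and red was 2.74-fold higher (log2 1.45 ± 0.13, limma adjusted p = 1.15e-06), the 14th highest of 15243 probes tested. Green reached the limit of detection on 1 of these 3 arrays. Without normexp background modelling the day 3 log2 ratio was 2.09 and did not pass (adjusted p = 0.0691), and the day 4 ratio was 2.75 and passed. On the value table's scaling the day 4 log2 ratio was 2.47.

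Gata2, the factor of blood progenitors and endothelium, was read best by clone H3008G04, which reached the limit of detection at day 2 on 1 of 3 arrays in red and 2 of 3 in green, at day 3 on 2 of 3 in each channel and at day 4 on all 3. At day 2 it had 337, 164 and 95 units in red, against 321, 133 and 116 units in green, and the ranges overlapped almost wholly. At day 3 it had 139, 298 and 148 units in red, against 130, 120 and 76 units in green. Every red value was above every green one, by little on array 1 and most on array 2. The ratio was 1.46-fold (log2 0.55 ± 0.10, limma adjusted p = 0.00122), and it did not pass without replicate 2 (log2 0.38, adjusted p = 0.0561). At day 4 it had 1197, 666 and 634 units in red, against 395, 207 and 238 units in green. The lowest red value was well above the highest green one, and the ratio was 2.34-fold (log2 1.23 ± 0.10, limma adjusted p = 5.98e-07), the 40th highest of all probes.

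Gata3, which acts in trophoblast and T cells, had 107, 102 and 59 units in red at day 2, against 128, 85 and 40 units in green. The channels overlapped there, and each reached the limit of detection on 1 of 3 arrays. The spot was flagged at -50 on 2 of the 3 arrays and kept in the fit. Other GATA spots with that flag were kept too: Gata1 on 2 arrays of day 2 and 1 of day 3, and Gata4 (H3158F07) on 1 array of day 2. H3009F04 carried it on all arrays of days 2 and 3, and H3062H01 on every array. At day 3 it had 180, 530 and 416 units in red, against 74, 95 and 88 units in green. Red was above green throughout, least on array 1, the array with the lowest red median. The ratio was 2.55-fold (log2 1.35 ± 0.12, limma adjusted p = 1.53e-06), 33rd from the highest of 15247 probes. It was larger without normexp (log2 2.16) and on the value table's scaling (log2 2.00). At day 4 it had 1274, 1641 and 1617 units in red, against 549, 620 and 751 units in green. Both channels were several times brighter than at day 3 and did not overlap, with a ratio of 2.03-fold (log2 1.02 ± 0.12, limma adjusted p = 2.81e-05).

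Gata4, the factor of heart and endoderm, changed most between days on clone H3158F07. At day 2 it had 104, 142 and 66 units in red, against 93, 124 and 45 units in green. The ranges overlapped, and the log2 ratio of 0.15 ± 0.11 did not pass (limma adjusted p = 0.534). At day 3 it had 258, 1229 and 963 units in red, against 41, 164 and 127 units in green. The groups did not overlap, array 1 was again lowest in both channels, and within each array red was 6.29 to 7.58 times green before normalization. The fitted ratio was 4.03-fold (log2 2.01 ± 0.11, limma adjusted p = 1.28e-08), 11th from the highest of all probes. It was larger without normexp (log2 2.97) and on the value table's scaling (log2 2.83). At day 4 it had 1147, 1861 and 1711 units in red, against 1121, 2032 and 2285 units in green. The ranges overlapped, and although the normalized ratio was below 0 on all 3 arrays (-0.34 to -0.27) it did not pass (log2 -0.29 ± 0.11, limma adjusted p = 0.0896). With the day 4 arrays fitted alone the same ratio passed (adjusted p = 0.0257).

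**Figure D2:**
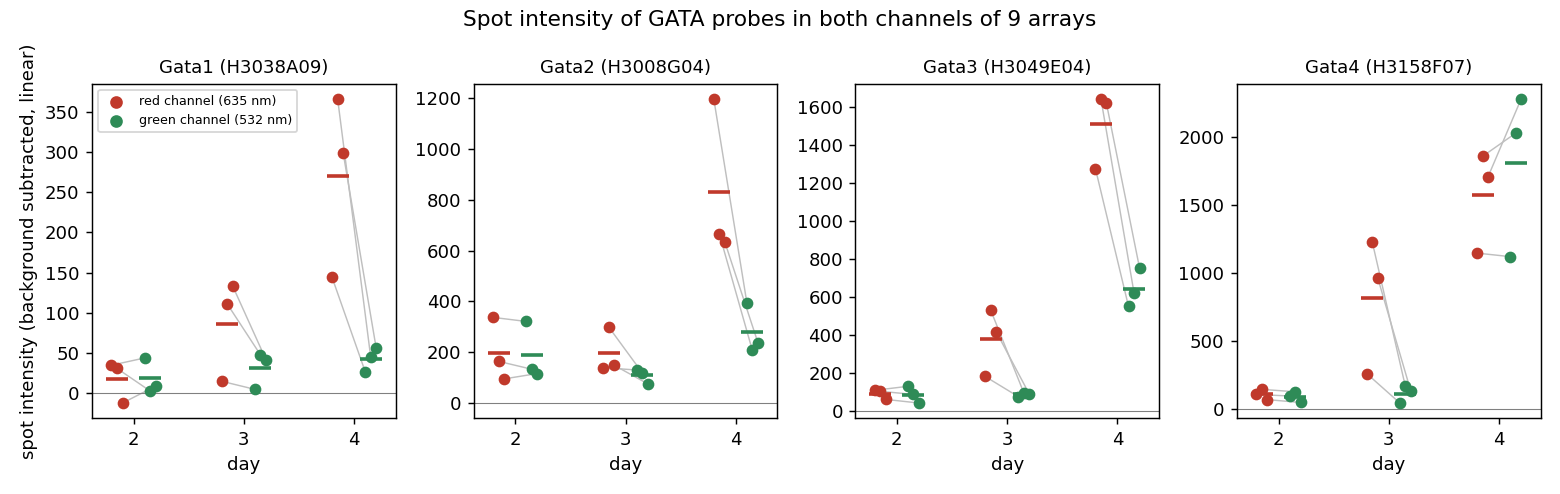
Background-subtracted spot intensity on a linear scale (vertical axis) of the main probe of each gene at days 2, 3 and 4, with red and green points for the channels, grey lines joining the channels of an array and bars for the means of 3 arrays. Gata4 in red averaged 817 units at day 3, against 111 units in green, while at day 4 the means were 1573 and 1813 units.

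The change of each ratio between days was tested in the same fit, which removes any dye bias that a probe carries equally on all days. From day 2 to day 3, 2 of the 6 probes gained in ratio and none lost, where 3.21% of all probes changed, 1.29% gaining and 1.92% losing. Gata4 gained 1.87 ± 0.16 on the log2 scale (limma adjusted p = 2.20e-05), 5th highest of 15246 probes, and Gata3 gained 1.27 ± 0.17 (limma adjusted p = 6.09e-04). At day 2 Gata3 reached the limit of detection on 1 of 3 arrays in each channel, and Gata4 on 1 in red and 2 in green. Without normexp the gains were 2.59 for Gata4 and 1.89 for Gata3, and on the value table's scaling that of Gata4 was 2.49. Gata2 (0.50 ± 0.14, limma adjusted p = 0.0697) did not pass, nor did Gata1 (adjusted p = 0.114), which has no size for this change because both channels were below the limit at day 2.

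From day 3 to day 4, 2 of 6 gained and 1 lost, where 6.58% of all probes changed, 3.94% gaining and 2.64% losing. Gata2 (H3008G04) gained 0.68 ± 0.14 (limma adjusted p = 0.00667). The fitted change of Gata1 was a gain that passed (limma adjusted p = 0.00585), but its day 3 ratio is a lower bound, so the size of the gain is not known. A larger day 3 ratio would make the gain smaller. At day 4 Gata1 green reached the limit on 1 of 3 arrays, and a larger day 4 ratio would make the gain larger. Gata4 fell by 2.31 ± 0.16 (limma adjusted p = 1.73e-07), which placed it 15234th of 15243 probes from the highest. Without normexp the Gata4 change was -3.28, and on the value table's scaling it was -3.14. Gata3 changed by -0.33 ± 0.17, which did not pass (limma adjusted p = 0.358). Over 9 alternatives the Gata3 change ran from -1.05 to -0.19, so its size depends on the processing, and it passed in none (lowest limma adjusted p 0.0691). The Gata1 gain did not pass without replicate 2 (adjusted p = 0.105) or without normexp (adjusted p = 0.743). The Gata2 gain did not pass without replicate 1 (0.59, adjusted p = 0.0700), without replicate 3 (0.60, adjusted p = 0.0773), without normexp (0.54, adjusted p = 0.212) or on the value table's scaling (0.63, adjusted p = 0.149). With the 2 channels of an array treated as unpaired samples, no change of ratio between days passed for any GATA probe (lowest adjusted p 0.0515, for Gata4 from day 3 to day 4). Under that fit Gata1 at day 3 (adjusted p = 0.548) and Gata2 at day 3 (0.789) and day 4 (0.0672) did not pass either.

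The level of each gene by day was then followed within each channel, on single-channel log2 values, to see which channel moved. In bulk embryoid bodies fewer cells of a type and less RNA per cell cannot be told apart. From day 2 to day 3, 2 of 6 probes rose in red, where 1.06% of all probes changed, 0.544% rising and 0.512% falling. In green 0 of 6 passed in limma, none of them at an unadjusted p under 0.05, where 0.748% of all probes changed, 0.289% rising and 0.459% falling. From day 3 to day 4, 3 of 6 rose in red, where 1.78% of all probes changed, 0.991% rising and 0.794% falling. In green 3 of 6 rose as well, where 2.27% changed, 1.16% rising and 1.11% falling. No GATA probe fell in either channel at either step.

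Gata4 rose earlier in red than in green. In red its log2 level was 7.53 ± 0.24 at day 2, 9.67 ± 0.81 at day 3 and 10.6 ± 0.23 at day 4 (SD, n = 3 each). In green it was 7.39 ± 0.32 at day 2, 7.65 ± 0.43 at day 3 and 10.9 ± 0.24 at day 4 (SD, n = 3 each). The red rise of 2.13 ± 0.35 to day 3 passed (limma adjusted p = 0.0192) and the red step of 0.97 to day 4 did not (limma adjusted p = 0.279). The green step of 0.27 to day 3 did not pass (limma adjusted p = 0.949), and the green rise of 3.28 ± 0.25 to day 4 did (limma adjusted p = 2.73e-04), the 5th highest of 15243 probes (4.58 without normexp). In order of level, green and red at day 4 overlapped at the top, red at day 3 stood apart below them, and green at day 3 and both channels at day 2 overlapped at the bottom. The red rise to day 3 did not pass without replicate 2 (2.05, adjusted p = 0.187), without replicate 3 (1.86, adjusted p = 0.378) or without normexp (2.60, adjusted p = 0.149).

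Gata3 rose in red at both steps and in green at the last. In red it was at 7.43 ± 0.10 at day 2, 8.86 ± 0.38 at day 3 and 10.6 ± 0.087 at day 4 (SD, n = 3 each). In green it was at 7.35 ± 0.15 at day 2, 7.51 ± 0.18 at day 3 and 9.58 ± 0.089 at day 4 (SD, n = 3 each). The red steps were 1.44 ± 0.20 (limma adjusted p = 0.00801) and 1.74 ± 0.20 (limma adjusted p = 0.00196). The green steps were 0.16 (limma adjusted p = 0.938) and 2.06 ± 0.15 (limma adjusted p = 1.85e-04), the last of these 3.26 without normexp. Red at day 4, green at day 4 and red at day 3 followed each other in level without overlap, and the remaining 3 groups overlapped. Neither red step passed without replicate 2 (1.38 and 1.81, adjusted p = 0.158 and 0.0531), without replicate 3 (1.31 and 1.83, adjusted p = 0.276 and 0.104) or without normexp (1.84 and 2.21, adjusted p = 0.173 and 0.0688).

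Gata2 (H3008G04) was flat to day 3 and higher at day 4. In red it was at 7.99 ± 0.36 at day 2, 8.23 ± 0.23 at day 3 and 9.83 ± 0.51 at day 4, and in green at 7.94 ± 0.27, 7.68 ± 0.23 and 8.61 ± 0.58 on the same days (SD, n = 3 each). The red step to day 4, 1.60 ± 0.28, passed (limma adjusted p = 0.0209), and the green step, 0.92, did not (limma adjusted p = 0.175). The red call was lost on leaving out replicate 1, 2 or 3 (1.31, 1.85 and 1.64, adjusted p = 0.0726, 0.121 and 0.230) and without normexp (2.25, adjusted p = 0.102). Red at day 4 was the only group that stood apart from the next. With the replicate number as a block the green step passed narrowly (adjusted p = 0.0494).

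Gata1 had a red level of 6.78 ± 0.24 at day 2, 7.56 ± 0.38 at day 3 and 8.52 ± 0.50 at day 4, and a green level of 6.75 ± 0.14, 6.97 ± 0.26 and 7.07 ± 0.11 on the same days (SD, n = 3 each). No step passed in limma, the nearest being the red step of 0.96 to day 4 (adjusted p = 0.162). Red at day 4 was the single group that did not overlap the next, and it was at least 3.28-fold above red at day 2, where the probe was not well above background.

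**Figure D3:**
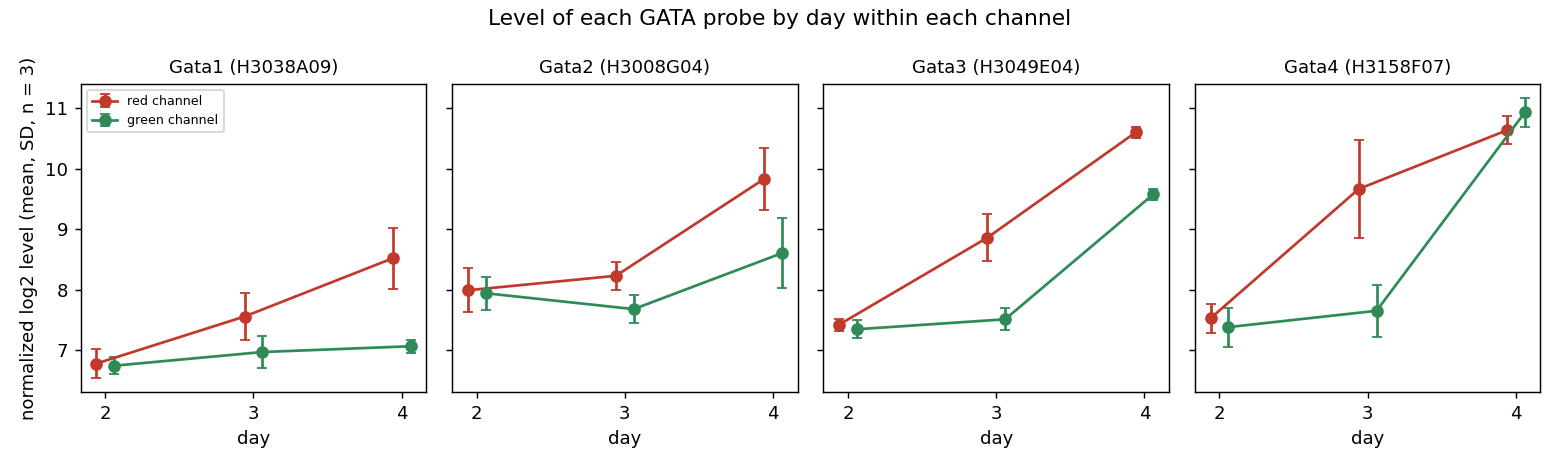
Normalized log2 level (vertical axis) of the main probe of each gene against day (horizontal axis) in the red and green channels, as mean and SD of 3 arrays. In green Gata4 stays near 7.65 until day 3 and reaches 10.9 at day 4, while in red it is at 9.67 by day 3.

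Signal-to-noise ratios set how far each probe can be read. For Gata3 and Gata4 (H3158F07) at day 4 they ran from 24.8 to 28.9 and from 16.3 to 34.4 in red, against 14.4 to 24.7 and 25.9 to 73.4 in green. Gata1 reached the limit of 1.4 on 1 of 3 arrays at day 3 and 3 of 3 at day 4 in red, against 0 of 3 and 1 of 3 in green. Gata2 (H3008G04) was at 9.43 or more in red at day 4, against 4.20 or more in green.

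Where a gene had a second probe, the second was dimmer against background. Gata2 clone H3009F04 had 83, 67 and 32 units in red at day 2, against 74, 47 and 54 units in green, below the limit in both channels. At day 3 it had -11, 50 and 57 units in red, against 20, 40 and 16 units in green, and the ratio did not pass (log2 0.22, limma adjusted p = 0.194). At day 4 it had 180, 192 and 259 units in red, against 111, 70 and 118 units in green, with 1 of 3 arrays at the limit in each channel. Its day 4 ratio was 1.60-fold (log2 0.68 ± 0.12, limma adjusted p = 7.52e-04), the same direction as H3008G04 and smaller, and it did not pass without normexp (1.14, adjusted p = 0.0544). Its level rose from day 3 to day 4 in red by 1.20 ± 0.18 (limma adjusted p = 0.00938) and in green by at least 1.67-fold (limma adjusted p = 0.0393). Both of these calls were lost on leaving out any 1 replicate. The red call was lost also without normexp (2.02, adjusted p = 0.115), and the green call with the replicate number as a block (adjusted p = 0.0930) and with median scaling of the channel (adjusted p = 0.186). Without normexp the green call held, with a fitted rise of 2.20.

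The second Gata4 clone, H3062H01, did not see what H3158F07 saw. Its intensities ran from -15 to 20 units in red and from -3 to 20 units in green over the 9 arrays. It was below the limit in both channels on every array, so it gives no fold, and no comparison passed. All 6 clones are noted in the tables as a single band on PCR, and the 2 Gata4 clones lie in different print blocks, 22 and 48. What the disagreement of the 2 Gata4 probes comes from was not tested. Gata5, a relative that lies outside the rule, has 3 probes on the array. The 2 of them with levels at the limit on some arrays did not pass at any day, and the third, H3068G04, was below the limit in both channels on every array, so that its day 3 call (limma adjusted p = 0.0266) gives no fold.

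**Figure D4:**
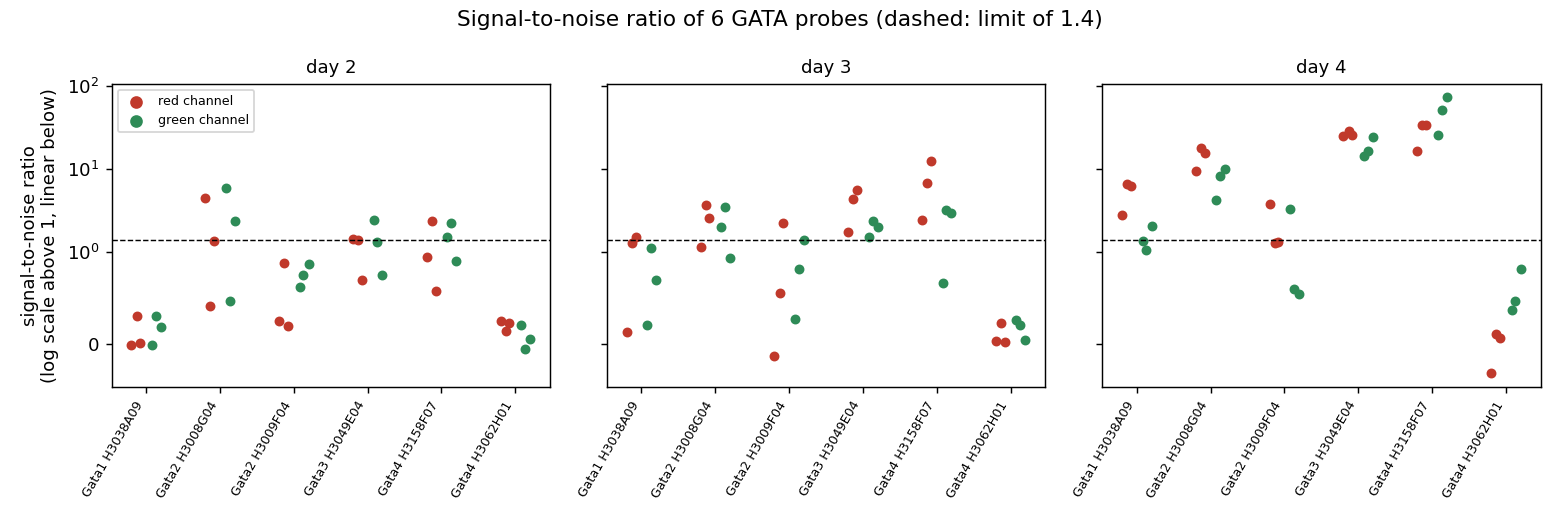
Signal-to-noise ratio (vertical axis, logarithmic above 1 and linear below) of the 6 GATA probes in red and green on the 3 arrays of each day, with a dashed line at the limit of 1.4. Clone H3062H01 lies below the line throughout, and Gata3 and Gata4 (H3158F07) lie above it in both channels on all day 4 arrays.

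The likeness of the patterns was measured as Pearson r of the log2 ratios over the 9 arrays, across 6393 probes that carried a symbol and a measurable signal. The 9 arrays fall into 3 days, and their ratios share those days and the dyes, so r is a description. The Gata1 ratios of days 2 and 3 include channels below the limit of detection. Gata1 and Gata2 were alike (r = 0.92), Gata3 stood between (0.58 with Gata1, 0.66 with Gata2, 0.57 with Gata4), and Gata4 ran apart from Gata1 (-0.27) and Gata2 (-0.20). The genes most like Gata4 were Cdh2, N-cadherin (0.98), Ccno (0.98) and Coch, a secreted matrix protein (0.97). Cdh2 had ratios of 0.23, 2.09 and -0.48 at days 2, 3 and 4, near those of Gata4 at each day. Ccno had -0.24, 0.40 and -0.61, lower than Gata4 at each day, and Coch had 1.06, 2.34 and 0.52, higher at each day. For Gata1 they were Dppa5a, a marker of pluripotent cells (0.97), Fth1, the ferritin heavy chain (0.97), and Myzap, a junction protein of heart muscle (0.97). For Gata2 they were the purine salvage enzyme Hprt (0.98), Scel, sciellin (0.98), and the stress gene Gadd45g (0.97). Hprt had ratios of -0.37, -0.0075 and 0.60 at days 2, 3 and 4, against 0.048, 0.55 and 1.23 for Gata2. For Gata3 they were the ubiquitin conjugase Ube2a (0.97), the DNA damage kinase Atm (0.96) and the phosphatase Ppm1d (0.96), whose ratios, at most 0.38, were far smaller than those of Gata3.

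Genes that work with the GATA factors or lie downstream were followed as lists, each gene by its brightest probe. Over the brightest probes of all symbols, 1.67%, 10.7% and 10.8% were higher and 1.85%, 12.4% and 10.1% lower at days 2, 3 and 4. Of 32 cofactors and partners listed, 10 were on the array, and none passed at day 2. At day 3, 1 of 10 passed: Cbfb, the partner subunit of Runx factors, was higher (1.50-fold, limma adjusted p = 8.33e-05). At day 4, 2 of 10 passed: Cbfb was 1.22-fold higher (limma adjusted p = 0.0173), and Smad4, the common mediator of BMP and TGF-beta signals, was lower (0.826-fold, limma adjusted p = 0.0283). The list's median log2 ratio was 0.091, 0.064 and 0.011 at days 2, 3 and 4, and that of all probes was -0.0019, 0.0040 and 0.0039. Ldb1, which bridges Gata1 complexes, did not pass on any day.

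Of 32 erythroid genes, many of them known targets of Gata1, 15 were on the array. At day 2, 1 was higher and none lower. At day 3, 4 were higher and 2 lower, and at day 4, 5 were higher and none lower, with list medians of -0.035, 0.14 and 0.16 on the 3 days. These counts include Slc4a1 at day 3 and Uros at day 4, which were below the limit in both channels and give no fold. They rest on 1 probe per gene, and other probes of the globins differed. At day 4, 18 of 19 probes of Hba-a1, an adult alpha globin, were higher (0.999-fold to 2.59-fold over all 19), and so were 3 of 5 of Hbb-b1, an adult beta globin (0.947-fold to 1.89-fold over all 5), although the brightest probe of neither passed. At day 3, 3 of 4 Hbb-y probes passed as higher, with all 4 below the limit in both channels. The embryonic globins led at day 4. Hbb-y was at least 2.81-fold higher, since its green channel was not well above background (limma adjusted p = 5.38e-08), and Hba-x was 2.23-fold higher (limma adjusted p = 3.49e-05). Hbb-y had 218, 193 and 223 units in red at day 4, against 21, 19 and 30 units in green. Kit, the stem cell factor receptor, was higher at day 2 (1.35-fold, limma adjusted p = 0.0342), day 3 (1.47-fold, adjusted p = 0.00169) and day 4 (1.33-fold, adjusted p = 0.0132), and Car2, carbonic anhydrase, at days 3 (1.31-fold) and 4 (1.32-fold). At day 3 the heme enzyme Alad was 1.39-fold higher by 1 of its 2 probes, and Ppox, another, was lower (0.709-fold, limma adjusted p = 5.06e-04).

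Of 10 hematopoietic markers 3 were on the array: Hbb-y and Hba-x, higher at day 4 as given above, and Cd34, a surface protein of blood progenitors and endothelium, which did not pass at any day. Cd34 had 403, 224 and 294 units in red at day 2, against 421, 190 and 280 units in green. At day 4 it had 17, 50 and 37 units in red, against 24, 21 and 34 units in green, below the limit in both channels. The summed intensity of the 3 markers at day 4 ran from 300 to 615 units in red, against 64 to 134 units in green. At day 2 the sums ran from 225 to 403 units in red, against 190 to 428 units in green, and at day 3 from 73 to 198 units in red, against 129 to 194 units in green, and Cd34 made up most of these earlier sums. Hba-x was below 0 in red on all arrays of days 2 and 3. Pecam1, the 1 endothelial marker of 7 on the array, was at least 1.48-fold higher at day 3 (limma adjusted p = 0.00271) and 2.44-fold at day 4 (limma adjusted p = 1.51e-06). Its intensity at day 4 ran from 225 to 269 units in red, against 44 to 57 units in green. At day 2 Pecam1 was brighter in both channels, from 278 to 407 units in red, against 256 to 421 units in green. The part of cell makeup in the Gata1 and Gata2 differences was not tested.

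Beside Gata3 at day 3, 6 of 10 trophoblast genes and 6 of 7 BMP-responsive genes were higher in red, where 10.7% of all symbols were. The lists were chosen with earlier results of these data known, so these counts are descriptions and not a test. Of 20 trophoblast genes 10 were on the array: 2 were higher at day 2, 6 higher at day 3, and 5 higher and 3 lower at day 4, with medians of 0.22, 0.90 and 0.45 and medians of all probes near 0. At day 3 Phlda2, an imprinted placental growth regulator, was 2.92-fold higher (limma adjusted p = 1.93e-08), Peg10, an imprinted retrotransposon-derived gene, 2.06-fold, and Tfap2c, an AP-2 factor of trophoblast, 1.93-fold. At day 4 the keratin Krt18 was 2.51-fold higher (limma adjusted p = 5.17e-07), Plac1, a placental gene, 2.44-fold, and the keratin Krt8 2.15-fold (limma adjusted p = 3.76e-06). In contrast, 3 genes that were higher at day 3 were now lower: Eomes, a T-box factor (0.409-fold, limma adjusted p = 6.82e-07), Tfap2c (0.602-fold, limma adjusted p = 8.42e-05) and Phlda2 (0.799-fold, limma adjusted p = 0.0213). Of 17 BMP-responsive genes 7 were on the array, with 2 higher at day 2, 6 at day 3 and 4 at day 4 and none lower. Id4, an inhibitor of bHLH factors, was 2.78-fold higher at day 3 (limma adjusted p = 2.61e-07), Tbx3, a T-box factor, 2.06-fold, Id3 1.87-fold, and Hand1, a bHLH factor, at least 2.26-fold. Id2 was 1.89-fold higher at day 4 (limma adjusted p = 9.73e-05). The list's medians were 0.15, 0.90 and 0.64.

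The 4 trophoblast markers of 6 on the array (Tfap2c, Hand1, Plac1 and Prl3d1) summed to 8128 to 12850 units in red at day 3, against 5083 to 11297 units in green, and to 13610 to 30823 units in red at day 4, against 10903 to 20765 units in green. At day 2 they summed to 11191 to 14528 units in red, against 9505 to 15791 units in green. These sums were carried by the brightest of 6 probes of Prl3d1, a placental lactogen, and that probe did not pass at any day. Of the others, 2 were lower at day 3 and 3 at day 4, with folds of the 6 probes from 0.637 to 1.06 at day 3 and from 0.648 to 1.10 at day 4, but 4 of the 6 were below the limit in both channels on those days. Plac1 was at or below 0 in red on all arrays of day 3. The part of such cells in the Gata3 difference was not tested.

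For Gata4 the lists were those of heart and extraembryonic endoderm. Of 21 cardiac genes 6 were on the array, with 0 past the test at day 2, 3 higher at day 3 (10.7% of all symbols) and 4 higher at day 4 (10.8% of all symbols), none lower, and medians of 0.082, 0.28 and 0.47. Cited1, a transcriptional coactivator, was 2.13-fold higher at day 3 (limma adjusted p = 6.14e-06) and 2.66-fold at day 4 (limma adjusted p = 5.31e-07). Tbx20, a T-box factor of the heart, was 1.69-fold higher at day 4 (limma adjusted p = 1.40e-05), and Myl4, an atrial myosin light chain, 1.24-fold by 1 of its 2 probes. Hand1, Tbx20 and Bmp4 are also in the BMP list, which holds 2 of the 3 cardiac calls at day 3 (Hand1 and Bmp4) and 2 of the 4 at day 4 (Hand1 and Tbx20), and Hand1 is in the trophoblast list too.

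Of 28 genes of extraembryonic endoderm 10 were on the array, with 1 higher at day 2, 3 higher at day 3, and 5 higher and 1 lower at day 4, and medians of 0.042, 0.17 and 0.25. The basement membrane genes Nid1 (1.62-fold, limma adjusted p = 7.12e-05), Col4a1 (1.39-fold) and Lamb1 (1.32-fold) were higher at day 3, each by its brightest probe and by none of its others, when the Gata4 ratio was 4.03-fold. The larger ratios came at day 4, when that of Gata4 was 0.816-fold: Tdo2, tryptophan dioxygenase, was 3.61-fold higher (limma adjusted p = 1.37e-08), Ttr, transthyretin, 3.05-fold (limma adjusted p = 2.35e-07), and Dab2, an endocytic adaptor, 1.82-fold (limma adjusted p = 4.97e-06). The 3 endoderm markers of 7 on the array (Ttr, Dab2 and Lamb1) summed to 724 to 1741 units in red at day 3, against 664 to 1452 units in green, and to 1197 to 2012 units in red at day 4, against 574 to 1378 units in green. The ranges overlapped at day 3 and at day 4. At day 2 the endoderm sums ran from 1124 to 1913 units in red, against 1086 to 1953 units in green. At day 4 Ttr and Dab2 were higher in red, whereas Lamb1 was lower (0.798-fold, limma adjusted p = 0.0406) by 1 of its 3 probes. In green Ttr had 394, 205 and 189 units at day 2 and 102, 80 and 128 units at day 4. Dab2 in green had 1095, 607 and 650 units and then 202, 404 and 389 units. In red Ttr had 370, 224 and 207 units at day 2 and 433, 395 and 721 units at day 4. Dab2 in red had 1028, 664 and 663 units and then 447, 872 and 835 units. None of the 4 cardiac mesoderm markers was on the array. The part of cell makeup in the Gata4 difference was not tested. Of 4 pluripotent markers 2 were on the array, and they differed in opposite directions. Pou5f1, a core pluripotency factor, had 7082, 4897 and 7450 units in red at day 2, against 9281, 5082 and 9246 units in green, and 1153, 1118 and 990 units in red at day 4, against 3007, 3588 and 5417 units in green. It was lower in red at day 3 (0.592-fold, limma adjusted p = 9.74e-04) and at day 4 (0.269-fold, limma adjusted p = 2.06e-07). Zfp42, a zinc finger gene of pluripotent cells, had 2871, 1614 and 1195 units in red at day 2, against 3001, 1262 and 1254 units in green, and 148, 109 and 98 units in red at day 4, against 71, 48 and 70 units in green. It was higher in red at day 3 (1.69-fold, limma adjusted p = 4.37e-06) and at least 1.41-fold higher at day 4 (limma adjusted p = 2.96e-04). Of 4 nascent mesoderm markers 2 were on the array. T was below the limit in both channels on every day. Eomes, also in the trophoblast list, passed at days 2, 3 and 4, at 1.96-fold, 1.84-fold and 0.409-fold. Of 4 neuroectoderm markers 2 were on the array, and neither passed at day 2. Nes was lower at days 3 (0.681-fold) and 4 (0.513-fold). Tubb3 was lower at day 3 (0.623-fold) and did not pass at day 4.

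By the authors' deposited table, whose mean folds rest on another scaling and a separate test per probe, no GATA probe was called at day 2, 3 were called up at day 3 and 4 at day 4. At day 3 the authors' deposited table calls Gata4 (H3158F07, fold 7.12, p = 0.0431), Gata3 (4.14, p = 0.0160) and Gata2 (H3008G04, 1.79, p = 0.0466). At day 4 the authors' deposited table calls Gata1 (5.73, p = 0.0331), Gata3 (2.16, p = 0.00759) and both Gata2 probes (2.69, p = 0.0433, and 2.02, p = 0.0478). In the authors' deposited table Gata1 failed the signal-to-noise filter at days 2 and 3, and H3062H01 failed it at every day, so neither has a fold there. Gata3 failed the flag filter at day 2 and has no fold for that day in the authors' deposited table. Gata4 at day 4 has a fold of 0.804 in the authors' deposited table (p = 0.388) and is not called.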

How the data were processed

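Spotted 2-colour cDNA arrays measured 18 samples, and the members and gene lists were chosen with earlier results of these data known. The deposited day tables give the intensity of each spot as foreground minus background in 2 channels, not normalized, and a score, the signal-to-noise ratio, with spot flags, per the file headers. The deposited mean fold, or ratio, and ANOVA p-value of each probe come from the authors' scaled channels. Another 45 scaled or per-array columns were left out of the fits, and the scaled channels among them were read only to match the value table. The deposited value table holds intensity values that equalled the authors' scaled channels within a relative tolerance of 1e-06 in all 18 samples. That match gives its scale and centring, while its direction stays unknown, and the medians of its columns lay between 724 and 1257.

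In R 4.3.3 with limma 3.58.1, flags of -75 or below and, after normexp (offset 50), 2080 control spots were left out, and ratios were normalized by loess. One model of 9 log2 ratios, with 6 residual degrees of freedom and empirical Bayes moderation, gave each day and the changes. Levels used single-channel values after Aquantile, 1 fit per channel. Tests were two-sided with Benjamini-Hochberg adjustment over all gene probes. Bounds set the brighter channel against the higher of the lowest detected signal and the dim probe's own. For ratios within a day and the green rise of H3009F04 the probe's own was higher. Those bounds equal the fitted folds and carry their errors. Each listed gene was represented by its brightest probe, and likeness took the 3 highest r. Named genes were up to 4 past the test per list and day by size, and others were named for a lower ratio or a limit. Symbols numbered 5626, of 8962 probes: 4128 probes had a current symbol, 3952 were updated through RefSeq names and 882 kept the table's. 1 further family probe outside the rule is not reported here. The script was tested on simulated data.

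The channels of an array deviated together (r = 0.80 to 0.91 across probes), so the array pairs them in the ratio. Same-numbered arrays of different days did not (r = -0.15 to 0.20), so the number does not pair days. Within a day the arrays' ratios correlated across probes at r = 0.52 to 0.73, and probes are not independent replicates.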

Additional observations from a re-analysis of the deposited data

Results flagged for a closer look

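In 5 cases the red over green ratio of a GATA probe differed between days by a test of the difference itself, in the limma fit of all 9 arrays. From day 2 to day 3 the log2 ratio of Gata3 (H3049E04) gained 1.2708 (adjusted p = 6.09e-04), and that of Gata4 (H3158F07) gained 1.8654 (adjusted p = 2.20e-05). Both probes reached the limit of detection in red on 1 of 3 arrays at day 2. From day 3 to day 4 the ratio of Gata2 (H3008G04) gained 0.6756 (adjusted p = 0.00667). The fitted change of Gata1 (H3038A09) over that step was 0.8659 (adjusted p = 0.00585), which is not a measured size, since its day 3 green channel was below the limit of detection on all 3 arrays and its day 3 ratio is a lower bound. Over the same step Gata4 changed by -2.3062 (adjusted p = 1.73e-07), with the normalized ratio above 0 on all 3 arrays at day 3 and below 0 on all 3 at day 4. The second Gata4 probe (H3062H01) was not above background on any array and shows neither change.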

How the results depend on the processing

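Over up to 10 alternatives per result, the ratios of Gata1 at day 4 (log2 1.32 to 2.75), Gata3 at day 3 (1.15 to 2.16) and day 4 (0.95 to 1.12) and Gata4 at day 3 (1.85 to 2.97) kept their direction and their call. The green rises from day 3 to day 4 of Gata3 (2.01 to 3.26) and Gata4 (3.18 to 4.58) did so over 7. Calls that were lost are given with the results, and where their cause is not in the setting itself it was not tested. Without the array as a block (no replicate block), the counts of all probes past the test were 81, 150 and 162 at days 2, 3 and 4, against 503, 3072 and 2656 with it, and 2 and 41 for the changes to day 3 and day 4, against 489 and 1003. The share higher among them was then 14.8% at day 2 (41.9% with the block), 28.0% at day 3 (45.4%), 100% for the change to day 3 (40.3%) and 34.1% for the change to day 4 (59.8%). The replicate number as a block, which does not pair the days, left 66 probes past the test for the green change to day 3, against 114. Plain background subtraction gave 122 probes at day 2 (68.9% higher) and 18 and 67 for the red changes to day 3 and day 4 (161 and 272 in the main setting). For the green changes it gave 25 and 220 (114 and 346). The value table's scaling gave 126 at day 2 (74.6% higher), and the arrays of a day alone 294 at day 2 and 1921 at day 3. Leaving out 1 replicate in turn gave 225 to 306 at day 2 (31.6% to 37.5% higher), 1181 to 2346 at day 3, 1167 to 2272 at day 4, 81 to 266 and 407 to 777 for the changes of ratio, 0 to 39 and 19 to 110 for red and 0 to 7 and 22 to 185 for green. Both counts of 0 came without replicate 3, where limma gave 1030 red and 744 green probes at an unadjusted p under 0.05.

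The results that turned direction were all uncalled. Leaving out 1 replicate did so for the day 2 ratios of Gata1 (-0.12 to 0.16), Gata2 H3009F04 (-0.0058 to 0.15) and Gata3 (-0.0017 to 0.15), and for the day 4 ratio of Gata4 H3062H01 (-0.14 to 0.019). It did so also for the change to day 3 of the Gata2 H3009F04 ratio (-0.046 to 0.35) and red level (-0.21 to 0.061), the Gata3 green level (-0.013 to 0.31) and the H3062H01 green level (-0.017 to 0.15). Plain subtraction turned the change to day 4 of the H3009F04 ratio (-0.18) and the changes to day 3 of the Gata3 green level (-0.046) and the H3062H01 red (-0.58) and green (-1.15) levels, and median scaling that of the H3009F04 red level (0.071). Under plain subtraction the day 3 ratio of H3062H01 passed (1.59, adjusted p = 0.0413) with both channels below the limit of detection. The alternative without background correction could not be run, since the columns are already background-subtracted.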
